A study of Marmota monax with 203 samples.

Results

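At week 15, the end of treatment, liver biopsies were compared between woodchucks, all chronically infected with the woodchuck hepatitis virus (WHV), that were dosed with recombinant woodchuck interferon alpha (wIFN-α) and woodchucks given placebo. All biopsies with that label week and an agent of IFN-α or placebo were taken, apart from that of wIFN-α animal M1004, which the study set aside. This gave 17 of the 164 biopsies of the series, 8 from wIFN-α animals and 9 from placebo animals. The wIFN-α group (M1002, M1003, M1012, F1013, F1014, F1018, F1020 and F1022) held 3 males and 5 females, and the placebo group (M1001, M1005, M1008, M1011, F1015, F1016, F1017, F1019 and F1021) held 4 males and 5 females. The woodchuck is infected by a virus closely related to human hepatitis B virus, and the animals of both groups had been infected with WHV at 3 days of age and were about 1 year old. The wIFN-α animals had received 20 μg for 7 weeks and then 100 μg for 8 weeks, with 3 doses in each week, and the biopsy was taken 6 hours after the last dose. Placebo animals were dosed and biopsied on the same schedule. Of the 12 animals that entered each group, only those alive and biopsied at this week are described, and F1020 died soon afterwards of unknown cause. The question was which genes, above all which genes of liver function, stood lower in the treated livers when high dose treatment ended.

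Poly(A) RNA was sequenced, and 14739824 to 56491738 reads per biopsy lay on genes, with a median of 32214668. Levels are given as CPM of gene reads after TMM scaling, effects as log2 fold changes of wIFN-α over placebo animals with their standard error (SE), and adjusted p values come from edgeR's quasi-likelihood test over all genes, adjusted by the Benjamini-Hochberg method. Genes count as called lower or higher where the adjusted p was below 0.05 with more than a 1.5-fold change. Of 14943 genes tested, 3327 (22.3%) were called, of which 1319 (8.83%) were called lower and 2008 (13.4%) higher in the wIFN-α group. These shares are the background against which each group of liver genes is read. The lists and their members were chosen with earlier results of these data known. A share above the background can therefore follow in part from that choice, and no list was tested as a whole. The lowest and the highest animal of each group overlapped for most genes. In 466 genes (3.12%) every wIFN-α animal lay below every placebo animal, and in 1266 (8.47%) every wIFN-α animal lay above.

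Some biopsies stood apart from their group. Placebo animal F1021 carried 2399 CPM on skin genes, where the other 16 biopsies carried 18.5 to 45.5 CPM. The pair of sequencing runs of placebo animal M1008 differed by a chi-square of 130.9 per degree of freedom, where runs of M1002, M1005 and F1018 differed by 1.914 to 3.543. F1020 was the lowest wIFN-α animal for 497 of the 1319 lowered genes, and its biopsy also held the most T cell and extracellular matrix reads of its group (468.5 and 6712 summed CPM, where the other wIFN-α animals had 157 to 236 and 2380 to 3066). Skeletal muscle genes summed to more than 1000 CPM in 6 biopsies, 3 of each group. Without F1020 1246 genes were called lower, without M1008 and F1021 1367, and without the 6 biopsies with muscle reads 1357. With only the deepest run of M1008 1297 genes were called lower. These last 3 alternatives were chosen after seeing the data. A further fit took the deepest run of each animal with the sequencing lane as a covariate. Lane 5 held M1003 alone, lane 6 only placebo animals M1001, M1011 and F1021, and lane 8 placebo animal F1016 alone. For these animals lane and treatment cannot be told apart, so they do not inform the fold change of that fit.

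Every animal also had a biopsy from week -3, before treatment, so the change since then could be compared with the animal as a block. This paired fit called 382 genes lower and 1373 higher. In the week -3 biopsies of F1016 and F1018, 16.5% and 16.4% of reads lay on 28 skeletal muscle genes, against at most 2.07% in the other 21. Without these animals, an alternative chosen after seeing the data, the paired fit called 1019 genes lower and 1845 higher. Where either paired fit removed the call of a gene named below, its adjusted p is given. A call could be lost there without a smaller fold change, as for LOC100505974 below.

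The liver makes bile acids from cholesterol, oxidises drugs and steroids with cytochrome P450 enzymes, burns or stores fat and sugar, turns ammonia into urea, and secretes most plasma proteins. Hepatocytes hold these functions at high level under the control of liver-enriched transcription factors and nuclear receptors. Interferon alpha binds a receptor on nearly all cells and, through STAT proteins, raises a large set of antiviral genes. Inflammatory signals are known to lower many P450 genes and to raise acute phase proteins in the liver. ALB, the main plasma protein of hepatocytes, took 22039 to 58432 CPM over all biopsies. In whole biopsies, fewer cells of a type and less RNA per cell cannot be told apart.

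Genes of the cytochrome P450 system were often called lower at week 15. Of 37 P450 and electron donor genes tested, 14 (37.8%) were called lower and 2 higher, and the median log2 fold change was -0.54, against -0.01 over all genes. Summed over the list, wIFN-α animals had 13760 to 29583 CPM with a median of 25670, and placebo animals 22307 to 41437 with a median of 33612. The groups overlapped in this sum, F1020 was lowest, and M1002 came next with 17964. Without F1020 the number called lower was 9, and without F1021, the placebo animal with the lowest sum, it was 19.

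Large fold changes were found for the CYP2A genes, whose human forms oxidise nicotine and coumarin. CYP2A6 lay between 102 and 502 CPM in wIFN-α animals (median 195) and between 352 and 1812 CPM in placebo animals (median 789). In 7 of 8 wIFN-α animals it lay below the lowest placebo animal, and F1014 alone reached into the placebo range. Its log2 fold change was -1.90 (SE 0.40, adjusted p = 0.00094), a level 3.74-fold lower. CYP2A13 (-2.09, adjusted p = 0.00106) and CYP2A7, which is not on the list (-2.22, adjusted p = 0.00101), were likewise highest in F1014 among treated animals, and reads of these near-identical genes can be split between them, so that they are better read as a family than as separate genes. CYP2B6, which handles drugs and is a classical target of the nuclear receptor CAR, lay between 96.2 and 952 CPM (median 603) in wIFN-α animals and between 415 and 2360 CPM (median 1150) in placebo animals. Only F1013 and F1020 lay below every placebo animal, and the log2 fold change was -1.12 (SE 0.37, adjusted p = 0.0213). Without the biopsies with muscle reads the log2 fold change of CYP2B6 was -1.18, with an adjusted p of 0.0943. With the sequencing lane as a covariate it was -0.93, with an adjusted p of 0.108.

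The CYP3A genes, which oxidise a large share of drugs, were lower by less. CYP3A4 lay between 249 and 846 CPM (median 507) in wIFN-α animals and between 525 and 1175 CPM (median 969) in placebo animals. Here 4 of 8 wIFN-α animals lay below all placebo animals, and the log2 fold change was -0.70 (SE 0.23, adjusted p = 0.0232). CYP3A5 (-0.63, adjusted p = 0.0365) and CYP3A7 (-0.66, adjusted p = 0.032) moved with it and may share its reads. With the sequencing lane as a covariate the adjusted p of CYP3A5 was 0.0545. Both calls were also lost without single animals. For CYP3A5 these were M1002, M1003, F1018, F1020, M1005, M1011, F1016 and F1017, with adjusted p between 0.0535 and 0.0714, and for CYP3A7 M1002, M1003, F1018, F1020 and M1011, with adjusted p between 0.0519 and 0.063. CYP2U1, a fatty acid hydroxylase found in many tissues, fell by 1.15 on the log2 scale (SE 0.20, adjusted p = 0.000144), and 6 of 8 wIFN-α animals lay below every placebo animal.

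Not all abundant P450 genes passed the test. CYP1A2, which clears caffeine, had 2065 to 3651 CPM in wIFN-α animals and 2161 to 4763 CPM in placebo animals (log2 fold change -0.22, SE 0.16, adjusted p = 0.277). CYP2E1, which oxidises ethanol, had 1810 to 7310 CPM and 1766 to 7354 CPM, and the groups covered the same range (-0.37, SE 0.30, adjusted p = 0.334). CYP2R1, a vitamin D hydroxylase, went the other way. It lay between 7.06 and 33.0 CPM in wIFN-α animals and between 1.78 and 4.24 CPM in placebo animals, with no overlap, and rose by 2.94 on the log2 scale (SE 0.26, adjusted p = 5.06e-08). The list had 1 gene called lower in the paired fit, and 12 without F1016 and F1018. CYP2U1 and CYP2R1 kept their calls in both, and the adjusted p of the other P450 genes named as lowered was 0.118 to 0.712 in the first. In the second it was 0.0579 for CYP2A13, 0.062 for CYP2A6 and 0.171 for CYP2B6, while CYP2A7 and the CYP3A genes were called.

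**Figure D1:**
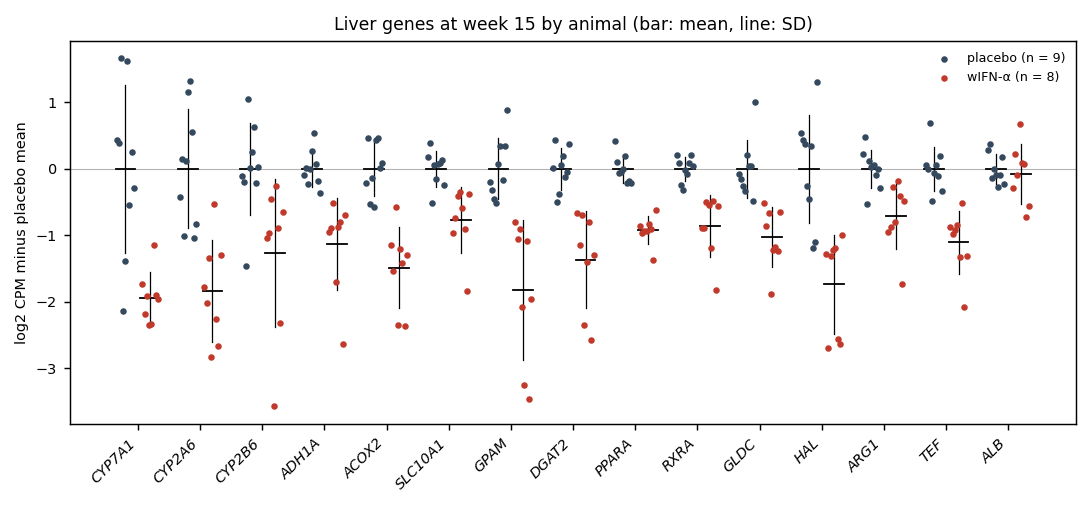
The plot shows 15 liver genes in each of the 17 animals at week 15, as log2 CPM minus the mean of the placebo animals; dots are animals, horizontal bars group means and vertical lines SDs, with placebo in grey (n = 9) and wIFN-α in red (n = 8). The wIFN-α animals lie wholly below the placebo animals for ADH1A, ACOX2, GPAM, DGAT2, PPARA, RXRA, GLDC and TEF, while CYP7A1 is spread widely among placebo animals and ALB overlaps.

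Bile acid genes were called lower more often than all genes. Of 27 genes tested, 9 (33.3%) were called lower and 3 higher, with a median log2 fold change of -0.36, and without F1021 1 was called higher. The list had 1 gene called lower in the paired fit, and 7 without F1016 and F1018. CYP7A1, the rate-limiting enzyme of bile acid synthesis, lay between 3.66 and 8.46 CPM in wIFN-α animals and between 4.24 and 59.4 CPM in placebo animals, with medians of 4.885 and 22.4. M1003, F1013 and F1014, with 4.13, 3.66 and 3.71 CPM, lay below every placebo animal, and the other wIFN-α animals lay in the low part of the placebo range. Placebo animals M1011 and F1015, with 4.24 and 7.13 CPM, fell among the wIFN-α animals. The log2 fold change was -2.33 (SE 0.44, adjusted p = 0.000359), a level 5.02-fold lower, and the call was kept in every alternative run. ACOX2, the peroxisomal oxidase that shortens the bile acid side chain, lay between 85.3 and 294.9 CPM (median 172.5) in wIFN-α animals and between 295.7 and 606 CPM (median 445) in placebo animals. The groups did not overlap, and the log2 fold change was -1.43 (SE 0.23, adjusted p = 8.98e-05). BAAT, which joins bile acids to glycine and taurine, fell by 0.74 on the log2 scale (SE 0.11, adjusted p = 3.02e-05).

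Among the carriers of bile acids and bile lipids, some were called lower and some higher. SLC10A1 (NTCP), the sodium-dependent uptake carrier at the blood side of the hepatocyte and in humans the receptor of hepatitis B virus, lay between 221.5 and 622 CPM (median 501.5) in wIFN-α animals and between 552 and 1031 CPM (median 836) in placebo animals. Here 5 of 8 wIFN-α animals lay below the lowest placebo animal (log2 fold change -0.73, SE 0.17, adjusted p = 0.00262). ABCB11, the bile salt export pump at the bile side, was lower by 0.75 (SE 0.18, adjusted p = 0.00268), with 6 of 8 wIFN-α animals below every placebo animal. With the sequencing lane as a covariate its adjusted p was 0.0681. SLCO1A2, a carrier of organic anions, was lower by 1.03 (adjusted p = 0.00934). ABCB4, which brings phosphatidylcholine into bile, lay between 142 and 233 CPM in wIFN-α animals and between 82.9 and 131 CPM in placebo animals. The groups did not overlap, and the log2 fold change was 0.68 (SE 0.11, adjusted p = 0.000122). ATP8B1, a lipid flippase of the canalicular membrane, was higher by 0.62 (SE 0.089, adjusted p = 2.19e-05) with no overlap. Without M1002, F1013 or F1021 its log2 fold change was 0.57 to 0.58, under the fold change required. ABCC3, an exporter at the blood side, was higher by 0.64 (adjusted p = 0.0119), and its log2 fold change was 0.54 to 0.55 without M1012, M1005 or F1021. Without the biopsies with muscle reads its adjusted p was 0.167. CYP7A1 and ATP8B1 kept their calls in the paired fit, and the adjusted p of the others was 0.425 to 0.711. Those not called without F1016 and F1018 were ABCB11 (0.0711), SLCO1A2 (0.0535) and ABCC3 (0.122).

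Genes that handle alcohols, aldehydes and retinoids were lower as well, with 7 of 33 (21.2%) called lower and 1 higher, and 11 called lower without M1008 and F1021. ADH1A, a class I alcohol dehydrogenase that oxidises ethanol and retinol, lay between 773 and 3337 CPM (median 2598) in wIFN-α animals and between 3710 and 6925 CPM (median 4758) in placebo animals. The groups did not overlap. F1020 was lowest, and the other wIFN-α animals had at least 1468 CPM. The log2 fold change was -1.04 (SE 0.22, adjusted p = 0.00126). ADH1B (-1.02) and ADH1C (-1.01) showed the same separation, and as close paralogs they can share reads with ADH1A. RDH5, a retinol dehydrogenase, fell by 0.89 on the log2 scale (SE 0.22, adjusted p = 0.00334). Among conjugation enzymes of phase II, which attach polar groups to drugs and hormones, 6 of 59 (10.2%) were called lower and 2 higher, a share near that of all genes. Without M1002, F1020 or M1005 3 were called lower, and without the biopsies with muscle reads 14. FMO1, a flavin monooxygenase kept in this list, had a log2 fold change of -0.81 (adjusted p = 0.0175). CES2, a carboxylesterase that opens ester drugs, was higher in every wIFN-α animal than in any placebo animal, with 1540 to 2301 CPM against 832 to 1417 CPM (0.66, SE 0.13, adjusted p = 0.000391), and at 0.53 without M1008 and F1021 it was under the fold change required. None of the genes named in this paragraph were called in the paired fit (adjusted p 0.281 to 0.756). Without F1016 and F1018 the ADH1 genes and RDH5 were called, while FMO1 had an adjusted p of 0.0694 and CES2 a log2 fold change of 0.58 (adjusted p = 0.0246).

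Fat synthesis genes were lowered as well. Of 34 genes of fatty acid and triglyceride synthesis, 10 (29.4%) were called lower and the other 24 were not called, with a median log2 fold change of -0.41. GPAM, the mitochondrial acyltransferase that starts triglyceride synthesis, lay between 27.5 and 174 CPM (median 110.5) in wIFN-α animals and between 213 and 563 CPM (median 271) in placebo animals. The groups did not overlap, although F1020 and F1014, with 27.5 and 32.1 CPM, lay far below the other treated animals. Its log2 fold change was -1.61 (SE 0.35, adjusted p = 0.0012). DGAT2, which completes triglycerides, lay between 79.3 and 301 CPM against 335.5 to 644 CPM, again without overlap (-1.25, SE 0.24, adjusted p = 0.000466). MLXIPL (ChREBP), the transcription factor that couples glucose to fat synthesis, was lower without overlap by 0.98 (SE 0.18, adjusted p = 0.000316). ACACA, which makes malonyl-CoA, was lower by 1.22 (SE 0.29, adjusted p = 0.00288), and MOGAT2, a monoacylglycerol acyltransferase, by 1.66 (SE 0.40, adjusted p = 0.00288). With the lane as a covariate the adjusted p of MOGAT2 was 0.109.

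FASN, the fatty acid synthase, did not pass the test. It lay between 858 and 5121 CPM in wIFN-α animals and between 2716 and 7033 CPM in placebo animals (log2 fold change -0.58, SE 0.31, adjusted p = 0.145). ELOVL6, which elongates its product, was called (-0.63, adjusted p = 0.0207) but lost the call without F1013, F1020 or F1015, with log2 fold changes of -0.52 to -0.58. Without F1020, 8 genes of the list were called lower. GPAM and ACACA kept their calls in the paired fit, and the adjusted p of the others named was 0.145 to 0.438. Only ELOVL6 among the named was not called without F1016 and F1018 (0.0562).

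Cholesterol synthesis showed no common direction, with 3 of 32 genes (9.38%) called lower and 3 higher, of which 1 was called higher without M1012 or M1005. FDFT1 (squalene synthase), which commits isoprenoids to sterols, lay between 23.04 and 73.8 CPM in wIFN-α animals and between 74.7 and 128.5 CPM in placebo animals, without overlap (log2 fold change -1.13, SE 0.21, adjusted p = 0.000411). IDI1, which acts earlier in the same route, lay between 133 and 408 CPM against 46.6 to 111 CPM, also without overlap, and rose by 1.85 on the log2 scale (SE 0.24, adjusted p = 5.73e-06). These enzymes of 1 route differed from placebo in opposite directions, and both kept their calls in every alternative. INSIG1, which restrains sterol synthesis, was called higher (0.67, adjusted p = 0.0251), with adjusted p of 0.0533 without M1003 and 0.0532 without M1012 and a log2 fold change of 0.55 without M1005, and it was not called in the paired fit (0.297, and 0.121 without F1016 and F1018). Its adjusted p was 0.134 without the biopsies with muscle reads and 0.0514 with the lane as a covariate.

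Of 46 genes of fatty acid oxidation and ketone body formation, 4 (8.7%) were called lower and 3 higher, near the share of all genes, and without F1018 7 were called lower. DECR2, a peroxisomal reductase for unsaturated fatty acids, lay between 25.5 and 53.8 CPM against 68.6 to 132 CPM, without overlap (log2 fold change -1.18, SE 0.16, adjusted p = 8.99e-06), and its adjusted p in the paired fit was 0.557, or 0.0065 without F1016 and F1018. EHHADH, the peroxisomal bifunctional enzyme, stood at the fold threshold (-0.59, SE 0.16, adjusted p = 0.00573). Its log2 fold change was -0.51 to -0.58 without M1002, M1003, F1013, F1014, F1022, M1001, M1005 or F1015, and -0.43 and -0.58 in the paired fits.

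In sugar metabolism 5 of 43 genes (11.6%) were called lower and 3 higher, while without F1020 3 were called lower and without F1013 1 was called higher. PPP1R3C and PPP1R3B, which tether protein phosphatase 1 to glycogen and favour its storage, were lower by 1.19 (SE 0.32, adjusted p = 0.00602) and 1.14 (SE 0.28, adjusted p = 0.0032). PPP1R3C lay between 18.3 and 143 CPM (median 88.6) in wIFN-α animals and between 84.4 and 292 CPM (median 212) in placebo animals. For each of both genes 4 of 8 wIFN-α animals lay below every placebo animal and F1020 was lowest. PKLR, the liver pyruvate kinase, was at -0.67 (adjusted p = 0.0207), and its log2 fold change was -0.56 without F1020 and -0.57 without F1022. G6PC and PCK1, the gatekeepers of glucose output, did not pass the test. G6PC was at 0.38 (SE 0.16, adjusted p = 0.0593), and PCK1 at -0.62 (SE 0.31, adjusted p = 0.118). In the paired fit none of the lowered members named kept the call (0.0693 to 0.328). Without F1016 and F1018 PPP1R3B was called, while PPP1R3C (0.0529) and PKLR (0.0904) were not.

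Ammonia handling genes were called lower more often than all genes. Of 20 genes of the urea cycle and ammonia handling, 5 (25%) were called lower and 2 higher. ARG1, which releases urea from arginine, lay between 319 and 931 CPM (median 682) in wIFN-α animals and between 737 and 1484 CPM (median 1081) in placebo animals. The ranges overlapped, and 4 of 8 wIFN-α animals lay below every placebo animal (log2 fold change -0.67, SE 0.18, adjusted p = 0.00639). NAGS, which makes the activator of the cycle, was at -0.59 (SE 0.13, adjusted p = 0.00186), the aspartate/glutamate carrier SLC25A13 at -0.67 (SE 0.15, adjusted p = 0.00198) and the proline oxidase PRODH at -1.13 (SE 0.32, adjusted p = 0.00971). Without F1020 only 1 gene of the list was called lower, and ARG1 (-0.56), NAGS (-0.50) and SLC25A13 (-0.57) were among those that then lay under the fold change required. NAGS also lost the call without M1002, M1003, M1001 or F1019, with log2 fold changes of -0.55 to -0.58. CPS1 and OTC, the first enzymes of the cycle, did not pass the test (-0.21, SE 0.14, adjusted p = 0.229, and -0.13, SE 0.087, adjusted p = 0.24). GLUL, which traps ammonia as glutamine in the hepatocytes around the central vein, went the other way. It lay between 787 and 1311 CPM in wIFN-α animals and between 457 and 602 CPM in placebo animals, without overlap, and rose by 0.92 on the log2 scale (SE 0.11, adjusted p = 3.96e-06).

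Among 62 genes of amino acid breakdown, 6 (9.68%) were called lower and 1 higher, near the share of all genes, although 55 of the 62 had a negative fold change and the median was -0.31. Without the biopsies with muscle reads 13 were called lower. HAL, which opens histidine breakdown, lay between 11.2 and 36.2 CPM (median 29.4) in wIFN-α animals and between 31.7 and 178 CPM (median 92.0) in placebo animals. Here 6 of 8 wIFN-α animals lay below all placebo animals (log2 fold change -1.78, SE 0.35, adjusted p = 0.00059), a level 3.43-fold lower. GLDC, of the glycine cleavage system, lay between 95.2 and 247 CPM against 252 to 704.5 CPM, without overlap (-1.03, SE 0.21, adjusted p = 0.000668). GNMT, which uses up methyl groups, was at -0.66 (adjusted p = 0.00957), and at -0.57 without M1003 and -0.55 without F1020. TAT, a tyrosine aminotransferase under glucocorticoid control, was at -0.38 (adjusted p = 0.124). PRODH kept the call in the paired fit but not with the sequencing lane as a covariate (-0.70, adjusted p = 0.203), and the adjusted p of the other called genes of these 2 groups named here was 0.0535 (GLUL) to 0.744. Only GLDC was not called without F1016 and F1018 (0.0511). Genes of the zone around the portal vein were called lower in 4 of 21 (19%) and higher in 2, and genes of the central zone in 3 of 24 (12.5%) and 2, and in each zone most genes were not called.

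Several regulators of these genes were lower. Of 40 liver transcription factors and nuclear receptors, 7 (17.5%) were called lower and 4 higher, and the median log2 fold change was 0.00. PPARA, the fatty acid receptor that drives fat oxidation, lay between 55.7 and 94.3 CPM (median 76.3) in wIFN-α animals and between 124 and 194 CPM (median 140) in placebo animals. The groups did not overlap (log2 fold change -0.93, SE 0.10, adjusted p = 1.39e-06). RXRA, the common partner of many nuclear receptors, lay between 51.8 and 132 CPM against 146 to 213 CPM, without overlap (-0.81, SE 0.15, adjusted p = 0.000378), and was called in every alternative. NR1I3 (CAR), the drug sensor that drives CYP2B6, was lower by 1.03 (SE 0.17, adjusted p = 0.000134), with 7 of 8 wIFN-α animals below every placebo animal. CEBPA, a factor of mature hepatocytes, was lower by 0.99 (SE 0.25, adjusted p = 0.00448). HNF4A, a master regulator of hepatocyte genes, did not pass the test, with 501 to 734.5 CPM against 450 to 847 CPM (-0.17, SE 0.12, adjusted p = 0.274). NR3C1, the glucocorticoid receptor, lay between 56.6 and 89.8 CPM against 25.1 to 38.0 CPM, without overlap (1.12, SE 0.11, adjusted p = 1.44e-07), and CEBPD, a factor of the acute phase, was higher without overlap (1.09, SE 0.20, adjusted p = 0.000336). RXRA and NR3C1 kept their calls in the paired fit, where the others had adjusted p of 0.0962 to 0.27. Only NR1I3 was not called without F1016 and F1018 (0.131).

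The circadian clock list held 20 tested genes, of which 7 (35%) were called lower and 3 higher. The 3 PAR bZIP factors, clock outputs that drive detoxification genes, were lower together. TEF lay between 33.5 and 99.5 CPM (median 73.4) in wIFN-α animals and between 102 and 228 CPM (median 142) in placebo animals, without overlap (log2 fold change -1.08, SE 0.18, adjusted p = 0.000135). HLF lay between 6.96 and 19.2 CPM against 15.1 to 40.4 CPM, with F1018 alone within the placebo range (-1.41, SE 0.22, adjusted p = 7.23e-05). DBP was lower by 0.97 (SE 0.31, adjusted p = 0.0167). The repressors CRY1 (-0.73, adjusted p = 0.00135) and CRY2 (-0.72, adjusted p = 0.000918) were lower too. NFIL3, which represses the sites that PAR bZIP factors activate, was higher by 1.53 (SE 0.32, adjusted p = 0.00103). It lay between 40.5 and 94.9 CPM in wIFN-α animals, and of the placebo animals M1011 alone, with 66.4 CPM, fell in that range. NPAS2 (1.34, adjusted p = 0.0107) and BHLHE41 (1.06, adjusted p = 0.000786) were higher. Without the biopsies with muscle reads the adjusted p of NPAS2 was 0.105. TEF, HLF, CRY2 and NFIL3 kept their calls in the paired fit, and the adjusted p of the others was 0.0839 to 0.732. Without F1016 and F1018 DBP (0.107) and BHLHE41 (0.27) were not called. The hour of the biopsies is not given in the sources used here, so that a difference in time of day was not tested.

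**Figure D2:**
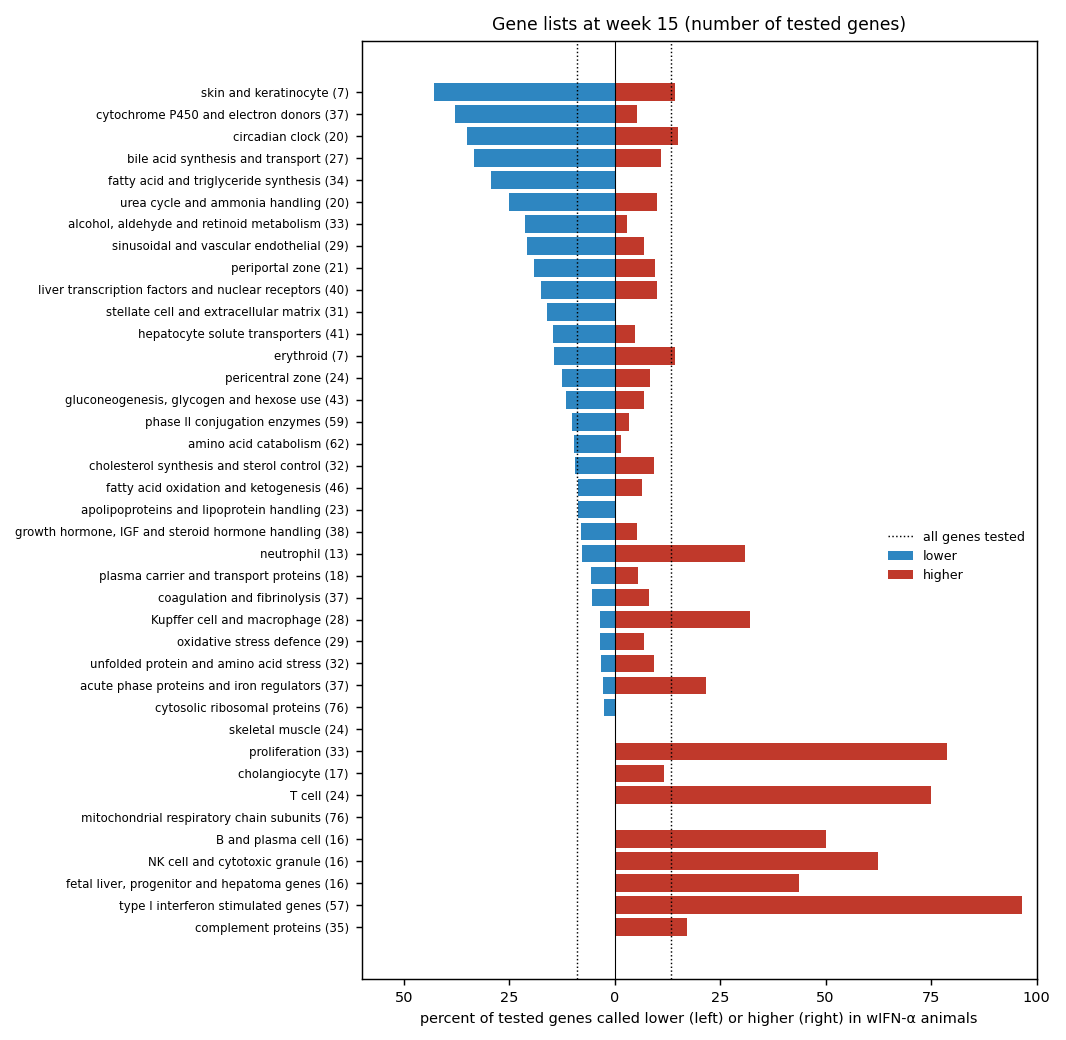
For each of the 39 gene lists, bars show the percent of its tested genes called lower (left, blue) and higher (right, red) in wIFN-α animals at week 15, with the number of tested genes in brackets, and dotted lines mark the percent of all genes tested. The P450, circadian clock, bile acid and fat synthesis lists extend farthest to the left beside the small skin list, and interferon stimulated, proliferation and T cell genes farthest to the right.

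Secreted plasma proteins did not follow the enzymes. ALB had medians of 36303 CPM in wIFN-α animals and 34243 CPM in placebo animals (log2 fold change -0.03, SE 0.18, adjusted p = 0.919). TTR, the carrier of thyroxine and retinol-binding protein, was at 0.11 (adjusted p = 0.709), APOB at 0.04 (adjusted p = 0.792), APOA1 at 0.33 (adjusted p = 0.0706) and prothrombin (F2) at -0.04 (adjusted p = 0.864). Of 18 plasma carriers 1 (5.56%) was called lower and 1 higher. The lowered gene was SERPINA6, which carries cortisol in the blood (-1.11, SE 0.40, adjusted p = 0.0327). Its adjusted p was 0.0529 to 0.0618 without M1002, M1003, F1013, F1018, F1020, M1011, F1016 or F1017. Without the biopsies with muscle reads the log2 fold change of SERPINA6 was -1.32 (adjusted p = 0.0808). With the sequencing lane as a covariate it was -0.82 (adjusted p = 0.212). The raised gene was HPX, which binds haem, with 3726 to 10465 CPM against 1817 to 3761 CPM (0.82, SE 0.19, adjusted p = 0.00227).

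Of 37 acute phase and iron genes, 8 (21.6%) were called higher and 1 lower, and of 35 complement genes 6 (17.1%) were called higher and the other 29 were not called. Without F1013 or F1021, or with the sequencing lane as a covariate, 5 acute phase genes were called higher. In the paired fit edgeR called 1 acute phase gene and 0 complement genes higher, and without F1016 and F1018 it called 6 and 7. LBP, which presents bacterial lipopolysaccharide, lay between 958 and 3527 CPM (median 1336) in wIFN-α animals and between 375 and 707 CPM (median 500) in placebo animals. The groups did not overlap, F1013 was far above the others, and the log2 fold change was 1.60 (SE 0.22, adjusted p = 1.91e-05). HMOX1, which breaks down haem, lay between 24.4 and 107 CPM against 4.69 to 14.4 CPM, without overlap (2.49, SE 0.28, adjusted p = 1.35e-06), and ITIH4, an inhibitor heavy chain, rose without overlap by 0.93 (SE 0.12, adjusted p = 5.68e-06). LEAP2, an antimicrobial peptide of hepatocytes that also acts on the ghrelin receptor, was the lowered member (-0.77, SE 0.18, adjusted p = 0.00197). HP and HAMP, known acute phase genes, did not pass the test (0.30, adjusted p = 0.269, and 1.07, SE 0.54, adjusted p = 0.122). Complement C2 (1.05, SE 0.12, adjusted p = 9.46e-07) and factor B, CFB (0.99, SE 0.16, adjusted p = 7.55e-05), rose without overlap, and MBL2, which starts the lectin pathway, rose by 0.75 (adjusted p = 9.15e-05).

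Of 37 coagulation genes, 3 (8.11%) were called higher and 2 lower, with 1 higher without F1013 or F1014 and 5 without M1011, and 1 lower without M1012 or F1022. The fibrinogen chains FGA (log2 fold change 0.76, SE 0.26, adjusted p = 0.0276) and FGB (0.85, SE 0.29, adjusted p = 0.025) were high mainly in F1013, with 20566 and 9185 CPM. Without F1013 they were at 0.50 (adjusted p = 0.0867) and 0.55 (adjusted p = 0.0814), and without F1014 at 0.67 (adjusted p = 0.0622) and 0.74 (adjusted p = 0.058). FGA also had an adjusted p of 0.0518 without F1016 and without F1021. With the lane as a covariate the adjusted p was 0.077 for FGA and 0.0994 for FGB. PLAT, the tissue plasminogen activator, lay between 8.50 and 24.0 CPM against 2.55 to 9.28 CPM (1.67, SE 0.24, adjusted p = 2.7e-05) and kept its call in every alternative, as did LBP. In the paired fit the other called plasma protein genes had adjusted p of 0.0505 to 0.731. Without F1016 and F1018 HPX (0.0565), FGA (0.121), FGB (0.126), LEAP2 (0.0572) and SERPINA6 (0.231) were not called.

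Among 41 solute transporters of hepatocytes, 6 (14.6%) were called lower and 2 higher, and 10 were called lower without M1008 and F1021. SLC43A1, a carrier of large neutral amino acids, lay between 7.90 and 15.3 CPM against 18.6 to 33.5 CPM, without overlap (log2 fold change -1.26, SE 0.13, adjusted p = 5.99e-07), and AQP9, through which glycerol and urea pass, was at -0.63 (SE 0.13, adjusted p = 0.00098), and at -0.57 without F1020. In the paired fit their adjusted p was 0.132 and 0.799, and without F1016 and F1018 0.00118 and 0.156. Of 38 genes of growth hormone, IGF and steroid hormone handling, 3 (7.89%) were called lower and 2 higher, and 5 were called lower without M1012 or M1008. ADRA1A, the adrenergic receptor that mobilises glycogen, was lower without overlap (-1.21, SE 0.16, adjusted p = 9.75e-06; adjusted p = 0.191 in the paired fit, 0.000739 without F1016 and F1018), and IGF1 did not pass the test (0.20, adjusted p = 0.344). Of 76 subunits of the mitochondrial respiratory chain, 0 were called by edgeR, DESeq2 called 0 lower and 0 higher, and 10 had an unadjusted p under 0.05. Of 76 cytosolic ribosomal proteins 2 (2.63%) were called lower, RPL4 (-0.64, SE 0.085, adjusted p = 9.03e-06) and RPL36A, which had only 0.206 and 0.177 CPM in M1002 and M1003. Yet 70 of the 76 had a negative fold change, the median was -0.18, and 27 had an unadjusted p under 0.05.

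The lowered genes with the largest fold changes fell into 2 kinds. In the first, the call was kept with any animal left out. PDXP, the phosphatase of pyridoxal phosphate, the active form of vitamin B6, lay between 1.86 and 3.81 CPM (median 2.75) in wIFN-α animals and between 10.6 and 17.1 CPM (median 13.2) in placebo animals. The groups were far apart, the log2 fold change was -2.21 (SE 0.14, adjusted p = 3.3e-10), and PDXP was 4.64-fold lower. MFAP3L, a membrane protein, lay between 2.37 and 7.05 CPM against 10.01 to 43.3 CPM, without overlap (-2.18, SE 0.26, adjusted p = 2.21e-06). The uncharacterised LOC100505974 (-2.75, SE 0.39, adjusted p = 1.96e-05) and LOC100506385 (-2.54, SE 0.35, adjusted p = 1.42e-05) did not overlap either. DCLK1, a microtubule-associated kinase, was at -2.18 (SE 0.42, adjusted p = 0.000457), and FIBCD1, a chitin-binding membrane protein, at -2.44 (SE 0.61, adjusted p = 0.00388), with F1018 high among treated animals (44.4 CPM) and F1019 high among placebo animals (251.5 CPM). DSG3, a desmosomal cadherin, was at -2.48 (SE 0.65, adjusted p = 0.00506), with 0.879 to 8.97 CPM against 0.874 to 54.7 CPM, and 5 of 9 placebo animals lay above every wIFN-α animal. In the paired fits PDXP, MFAP3L, DCLK1, FIBCD1 and LOC100506385 kept their calls. LOC100505974 did not, at log2 fold changes of -2.89 (adjusted p = 0.176) and, without F1016 and F1018, -3.07 (adjusted p = 0.0659). Nor did DSG3, at -1.78 (0.347) and -1.87 (0.0821).

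In the second kind, the fold change rested on 1 or a few high placebo biopsies. KRT1 and FLG2, proteins of the outer skin, had 1088 and 153.8 CPM in F1021 and at most 1.11 and 1.45 CPM in any wIFN-α animal, with placebo medians of 0.406 and 0.874 CPM. Their fitted log2 fold changes of -7.57 and -4.07 turned to 0.51 and 0.28 without F1021. KRT10, a keratin of the same layer, went from -2.55 to -0.09. The collagen chains COL1A1 (-2.71) and COL1A2 (-2.49) and the matrix protease MMP2 (-2.66) were highest in F1021, F1015 and M1011. Without the biopsies with muscle reads, which include these 3, COL1A1 was at 0.54, COL1A2 at 0.42 and MMP2 at -0.52. COL1A1 also had an adjusted p of 0.0501 to 0.054 without M1002, M1003, F1013 or F1018, and of 0.193 without F1021. For COL1A2 the values were 0.0516 to 0.0552 without M1003, F1013 or F1018 and 0.168 without F1021. ENTPD5, a nucleotide phosphatase of the endoplasmic reticulum, had 10411 CPM in M1008 and 370 to 763 CPM in the other placebo animals. Its log2 fold change of -1.90 (adjusted p = 0.0283) was -0.36 (adjusted p = 0.133) without M1008 and -0.44 (adjusted p = 0.0721) with only the deepest run of M1008. None of KRT1, FLG2, KRT10, COL1A1, COL1A2, MMP2 and ENTPD5 were called in the paired fits, where their adjusted p was 0.477 to 0.848 and, without F1016 and F1018, 0.218 to 0.814. In the run of M1008 from lane 5 ENTPD5 took 31876 CPM of unscaled gene reads, and in the run from lane 3 it took 977.9.

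**Figure D3:**
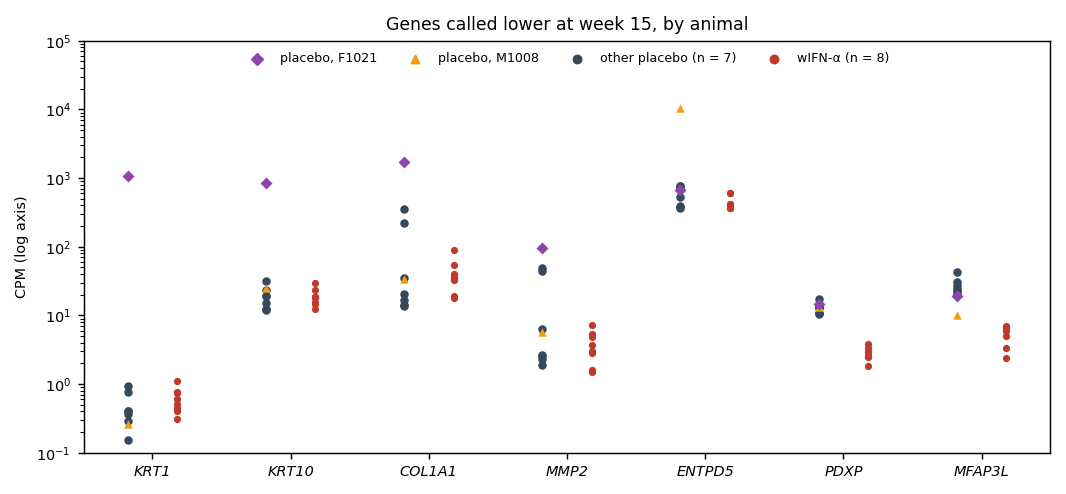
CPM on a log axis of 7 genes called lower at week 15 is shown in each animal, with wIFN-α animals in red (n = 8), placebo animals in grey, placebo animal F1021 as diamonds and placebo animal M1008 as triangles. KRT1, KRT10, COL1A1 and MMP2 are highest in F1021 and ENTPD5 in M1008. For COL1A1 and MMP2 placebo animals F1015 and M1011 also lie above all treated animals. The range of the remaining placebo animals overlaps that of the treated ones for these genes, for ENTPD5 with 370 to 763 CPM against 366 to 612 CPM. PDXP and MFAP3L are low in all treated animals.

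Genes of other liver cells were described beside the hepatocyte genes. Of 29 endothelial genes, 6 (20.7%) were called lower and 2 higher. KDR, the main VEGF receptor, lay between 6.19 and 27.0 CPM (median 10.5) in wIFN-α animals and between 21.8 and 62.4 CPM (median 32.6) in placebo animals, with M1002 alone within the placebo range (log2 fold change -1.41, SE 0.30, adjusted p = 0.00104). CLDN5, an endothelial tight junction protein, was at -1.24 (SE 0.27, adjusted p = 0.00149). LYVE1, a hyaluronan receptor of sinusoidal endothelium, was higher (0.98, SE 0.17, adjusted p = 0.000138), while STAB2, a scavenger receptor of the same cells, did not pass the test (0.12, adjusted p = 0.667). KDR was called in the paired fit, where CLDN5 and LYVE1 had adjusted p of 0.0748 and 0.172. Without F1016 and F1018 all 3 were called. Of 31 stellate cell and matrix genes 5 (16.1%) were called lower, 2 without M1003, F1013, F1018 or F1021, and none by edgeR without the biopsies with muscle reads.

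Interferon stimulated genes and genes of immune and dividing cells were called higher more often than all genes (13.4%). Of 57 type I interferon stimulated genes, 55 (96.5%) were called higher, all 55 without overlap. MX1, a GTPase that blocks viruses, lay between 5225 and 8666 CPM against 517.5 to 756 CPM (log2 fold change 3.47, SE 0.12, adjusted p = 2.08e-13), and its paralog MX2 lay between 14.3 and 57.9 CPM where no placebo animal had more than 0.067 CPM, too low for a fold change. ISG15 (5.92) and IFIT1 (5.36) rose likewise. Further large rises were those of TMPRSS2, OASL, RSAD2 and IFIT3 (7.40, 7.33, 7.28 and 7.01), GBGT1 (6.58), IFIT2 (6.41), LOC100129473 (6.39), ZBP1 (6.12) and APOL2 (6.05), and GBGT1 stayed at 0.28 CPM in F1018, within the placebo range. Of 24 T cell genes 18 (75%) were called higher, of 16 NK cell genes 10 (62.5%), of 16 B and plasma cell genes 8 (50%) and of 33 proliferation genes 26 (78.8%). Summed B and plasma cell genes overlapped between the groups, with 281 to 859 CPM against 211 to 575 CPM. So did summed proliferation genes, with 258 to 706 CPM against 261 to 365 CPM, and F1014 lay below every placebo animal. Summed NK cell genes took 51.2 to 116 CPM against 22.4 to 41.9 CPM, without overlap, although only 2 of the 16 NK cell genes did not overlap singly. Summed T cell genes took 157 to 468.5 CPM in wIFN-α animals and 61.5 to 128 CPM in placebo animals, without overlap. The T cell marker CD3E lay between 69.1 and 111 CPM against 24.6 to 36.5 CPM (1.35, SE 0.11, adjusted p = 1.63e-08). The gap between the sums rested largely on CD3E, which took 72.3 to 79.7 CPM in M1012, F1013, F1014 and F1022, where the sums were 157 to 162. CD3D overlapped, with 4.65 to 28.5 CPM against 2.05 to 7.40 CPM, and 3 of the 24 T cell genes did not overlap. LAG3 and PDCD1, brakes of T cells, rose by 1.94 (adjusted p = 9.07e-05) and 2.66 (adjusted p = 0.00103), most of all in F1020. The B cell markers MS4A1 (1.58, adjusted p = 0.000454) and FCRL5 (1.87, adjusted p = 0.000138) rose without overlap. In the paired fit the T cell list had 2 genes called higher, the NK cell list 4, the B and plasma cell list 2 and the proliferation list 19. Without F1016 and F1018 these numbers were 12, 7, 4 and 23. Adjusted p was 0.0577 for CD3E, 0.171 for LAG3, 0.065 for PDCD1 and 0.1 for MS4A1 in the first, and in the second 0.0713 for MS4A1, with the others called.

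Of 28 Kupffer cell and macrophage genes, 9 (32.1%) were called higher and 1 lower, while 3 were called higher with the sequencing lane as a covariate and 1 in the paired fit. SIGLEC1, an interferon-inducible lectin of macrophages, lay between 33.4 and 137 CPM against 3.93 to 30.4 CPM (log2 fold change 1.91, SE 0.35, adjusted p = 0.000265). CD163, the haemoglobin scavenger receptor, was the lowered member, with 0 to 3.79 CPM against 0.569 to 12.1 CPM. It stood at the threshold (-1.94, SE 0.77, adjusted p = 0.0498), and its adjusted p lay above 0.05 in 20 of the alternatives, among them 12 that left out a single animal and the paired fit without F1016 and F1018 (0.0588). Of 16 tested genes of fetal liver, progenitor cells and hepatoma, 7 (43.8%) were called higher and the other 9 were not called. LAPTM4B, a lysosomal protein (1.96, SE 0.11, adjusted p = 8.79e-11), IGF2BP2, an RNA-binding protein (1.91, SE 0.16, adjusted p = 2.01e-08), the growth factor MDK (2.12, SE 0.30, adjusted p = 2.37e-05) and PEG10 (2.12, SE 0.34, adjusted p = 7.17e-05) rose without overlap, although MDK stayed under 10 CPM in all animals. Of stress genes, ATF3 (2.63, SE 0.41, adjusted p = 6.21e-05) and the superoxide dismutase SOD2 (2.31, SE 0.23, adjusted p = 2.79e-07) rose without overlap. How far changed cell numbers account for the lowered liver genes was not tested.

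Reads of the virus itself were fewer in the treated group. WHV reads, set against the gene reads and scaled as CPM without TMM, came to 57.7 to 22823 in wIFN-α animals (median 5694) and 11154 to 28648 in placebo animals (median 22846). M1002 (57.7) and F1020 (164) were lowest, followed by F1022 (2291), M1003 (4600), F1018 (6788), F1013 (13870), M1012 (21561) and F1014 (22823), and 5 of 8 lay below every placebo animal. On the log2 scale the groups had means of 11.49 (SD 3.23, n = 8) and 14.35 (SD 0.46, n = 9), a difference of -2.86, with an exact two-sided permutation p of 0.00304. The difference was -2.06 to -3.29 with any animal left out. The study defined response groups by the fall in serum WHV surface antigen, but the labels do not give them and they were not used here. No test was made of these 8 animals against each other.

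**Figure D4:**
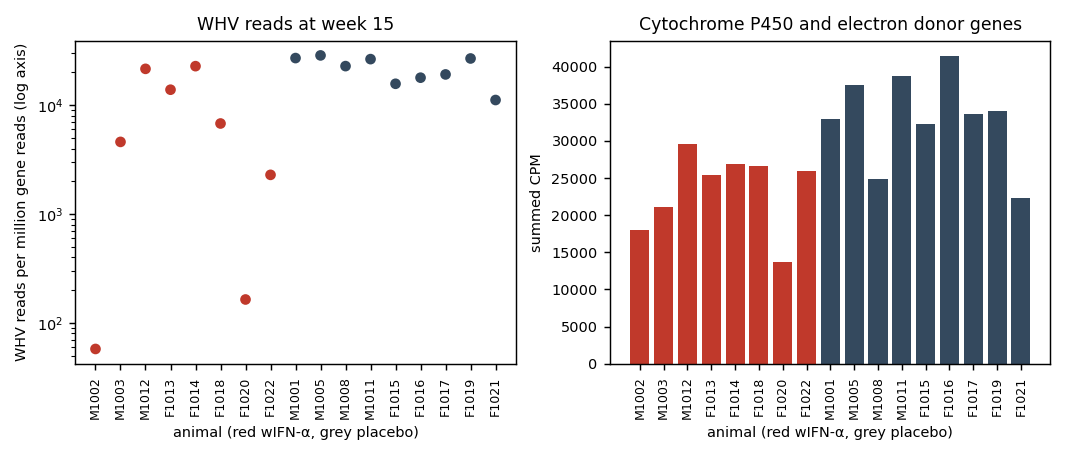
The left panel shows WHV reads as CPM of gene reads on a log axis and the right panel the summed CPM of cytochrome P450 and electron donor genes as bars, for each animal at week 15 (red wIFN-α, grey placebo). Treated animals spread from 57.7 to 22823 CPM of WHV reads, and their P450 sums run from 13760 CPM in F1020 to 29583 CPM in M1012.

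The effect at week 15 was set beside those of week 11, 4 weeks earlier at the same dose, and week 0, 6 hours after the first 20 μg dose. These comparisons use largely the same animals. At week 11, 1194 of 14966 genes (7.98%) were called lower and 1879 (12.6%) higher, and at week 0, 1198 of 14700 (8.15%) and 1521 (10.3%). Of 15456 genes tested for a difference between the effects at weeks 15 and 11, 0 were called by edgeR and 0 by DESeq2, where 181 and 204 had an unadjusted p under 0.05. With the animal as a block 0 were called as well. No gene was thus shown to differ in effect between these weeks. At week 11 CYP7A1 was at -2.32, ADH1A at -0.73, GPAM at -1.10, DGAT2 at -0.58 (adjusted p = 0.0717), PPARA at -0.73 and ACOX2 at -1.04.

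Against week 0, 439 of 15468 genes (2.84%) had a different effect at week 15, 109 (0.705%) more negative and 330 (2.13%) more positive. The more negative genes numbered 46 without F1020, 53 without F1019, 57 without M1001, 64 without M1003 and 71 without M1002, and the more positive genes 523 without F1014 and 498 without M1012. With the animal as a block 307 were more negative and 525 more positive. List counts and single gene differences below come from the fit without the block. That fit takes biopsies of the same animal as independent, and values from the fit with the block are not given here. In the fit without the block, the lists of liver functions held few of the 439 genes. P450 genes were called lower in 2 of 37 at week 0, 10 at week 11 and 14 at week 15, with median log2 fold changes of -0.26, -0.42 and -0.54. Without the block, the difference itself passed the test for CYP4F2 alone (log2 fold change -0.78 at week 15), which was named after its values were seen. CYP2A6 moved from -0.38 (adjusted p = 0.594) to -1.90, a difference of -1.58 (adjusted p = 0.224), and ADH1A from -0.20 (adjusted p = 0.788) to -1.04, a difference of -0.89 (adjusted p = 0.499). By contrast CYP7A1 (-1.68), PPARA (-0.77), RXRA (-1.03), MLXIPL (-1.07) and PDXP (-2.09) were already called lower at week 0.

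Among the genes named here whose difference from week 0 passed the test, the most negative values belonged to ENTPD5 (-2.44), which rests on M1008, and to MFSD2A, MPZL2, PPP1R3C and SLC13A2. PPP1R3C was at 0.35 (adjusted p = 0.187) at week 0, and its difference was -1.58 (adjusted p = 0.00957). MPZL2, an adhesion protein, was at 0.29 and then at -1.42, without overlap at week 15 (difference -1.75, adjusted p = 0.00653). MFSD2A, a carrier of lysophosphatidylcholine with omega-3 fatty acids, went from 0.84 (adjusted p = 0.0986) to -1.10, a difference of -2.0 (adjusted p = 0.0495), and lost its week 15 call without F1018, F1020 or F1019 (adjusted p 0.0506 to 0.0524) and in the paired fits (0.327, and 0.174 without F1016 and F1018). Without the biopsies with muscle reads its week 15 log2 fold change was -1.12 (adjusted p = 0.129). With the lane as a covariate it was -0.81, at the same adjusted p. SLC13A2, a citrate carrier, was higher at week 0 (1.54, adjusted p = 1.35e-05) and did not differ from placebo by the test at week 15 (0.02, adjusted p = 0.979). The difference of MFAP3L was -1.46 (adjusted p = 0.0385).

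Genes of dividing cells differed most often, in that 29 of 33 proliferation genes had a more positive effect at week 15. At week 0, 19 of the 33 were called lower. TOP2A, which untangles DNA before division, lay between 3.44 and 42.7 CPM in wIFN-α animals at week 15 and between 2.65 and 9.88 CPM in placebo animals, and went from -1.24 (adjusted p = 0.000955) at week 0 to 2.16 (adjusted p = 0.000529), a difference of 3.36 (adjusted p = 5.1e-05). TCF19, a factor of the G1/S phase, (difference 2.67, adjusted p = 0.000237) and ARHGAP11A, a regulator of cell division, (2.69, adjusted p = 0.00125) did likewise, but at week 15 ARHGAP11A was not called in the paired fits (0.0674, and 0.0759 without F1016 and F1018). PDCD1 went from -0.29 to 2.66 (difference 2.91, adjusted p = 0.00574), LBP from 0.26 to 1.60 (1.30, adjusted p = 0.0217), PLAT from 0.41 to 1.67 (1.22, adjusted p = 0.00867) and IGF2BP2 from 0.84 to 1.91 (1.01, adjusted p = 0.00608). Of the interferon stimulated genes 8 of 57 had a more positive effect at week 15, ZBP1 by 2.70 (adjusted p = 1.6e-05), while MX1 stood at 3.59 at week 0 and 3.47 at week 15.

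**Figure D5:**
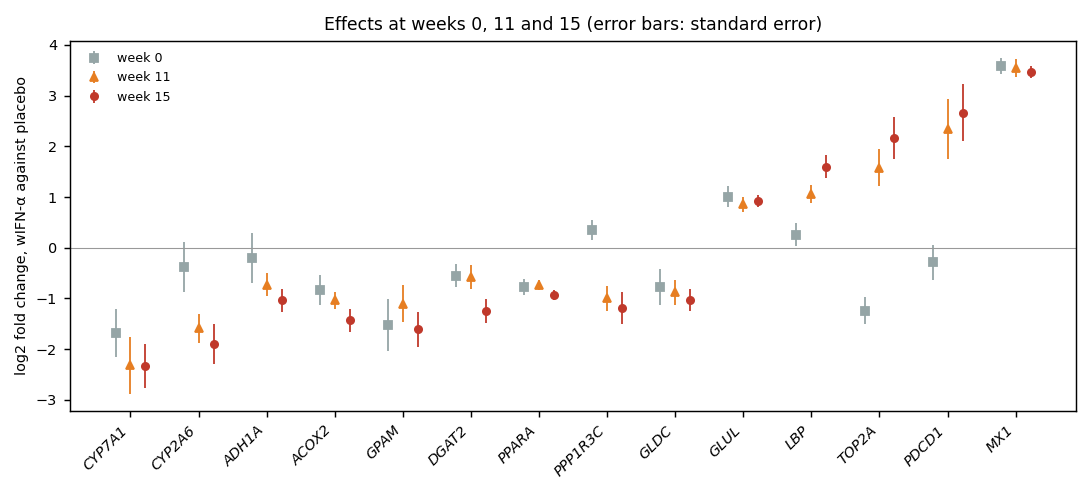
Log2 fold changes of wIFN-α over placebo animals with their standard errors are shown for 14 genes at week 0 (grey squares), week 11 (orange triangles) and week 15 (red circles). CYP7A1, PPARA, GLUL and MX1 lie at like values at all 3 weeks, CYP2A6, ADH1A and PPP1R3C lie at -0.38, -0.20 and 0.35 at week 0 and lower at weeks 11 and 15, and TOP2A lies below 0 at week 0 and above 0 later.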

How the data were processed

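Per the study's methods, poly(A) libraries of liver RNA were read in pairs of 50 nucleotides. The authors checked reads with FastQC after CASAVA, mapped them with Bowtie2 to their own woodchuck transcriptome assembly and counted them per gene with SAMtools, with versions not given in the sources used here. The deposited files hold estimated counts, of which 118 of 3368023 nonzero entries were fractional and were rounded, and RPKM values, which were not used. Genes carry human-style symbols without coordinates, and near-identical genes can share reads. Weeks are numbered as in the study.

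Runs of an animal were summed, and M1004 was left out. Genes were filtered by expression and tested with edgeR 4.0.16 in R 4.3.3 (TMM, quasi-likelihood), with DESeq2 1.42.0 and limma 3.58.1 (voom) as alternatives, and differences between weeks were tested as interactions. Other alternatives were another scaling, no filter, the deepest run, lane, sex, a fold above 2 and leaving out animals. Each animal gives 1 biopsy per week, so the numbers pair the samples across weeks, where deviations from the group mean correlated with a median r of 0.289 between weeks 15 and -3 over 17 animals. The median r was 0.337 between weeks 15 and 0 and 0.577 between weeks 15 and 11. The main tests of differences between weeks left this pairing out, and the animal as a block was an alternative. WHV reads were compared as log2(RPM of gene reads + 1) by an exact permutation test over all 24310 splits, counting absolute differences at least as large. The tests were checked on simulated data. Genes named were the 15 lowest and 10 highest called genes with a mean of 5 CPM or more, the 10 most abundant lowered genes, defining members and up to 6 called members per direction of 39 lists, and the 5 largest differences between weeks in each direction, and of these 277 the text describes a selection of 143. Some genes are not reported here. Members and lists were chosen with earlier results of these data known. Counting error is small at these depths, and p values reflect the spread between animals. Tables and figures used Python 3.11.15 with numpy 2.4.6, pandas 2.3.3, scipy 1.17.1 and matplotlib 3.10.9.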

Additional observations from a re-analysis of the deposited data

Results flagged for a closer look

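A sample was listed where its gap to the nearest animal of its group took up more of the group's range than Dixon's critical value allows, which chance does in about 1 of 20 groups, and values are CPM. Among treated animals F1018 stood high for CYP7A1 (8.456), HLF (19.19), DBP (22.73), FIBCD1 (44.4) and DSG3 (8.968). F1014 stood high for CYP2A13 (362.8) and APOL2 (74.25), and M1012 for BAAT (87.51) and MOGAT2 (5.843). F1013 stood high for HPX (10465), LBP (3527), ITIH4 (7273), HAMP (96.74), IFIT1 (827.4) and CD163 (3.786). F1020 stood high for HMOX1 (107.3), CD3E (111), PDCD1 (68.08), LAG3 (34.63), FCRL5 (30.92), SIGLEC1 (136.8) and the summed matrix genes (6712), and low for LEAP2 (38.93).

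Among placebo animals F1021 stood high for GPAM (563.2), HAL (178.1), GLDC (704.5), KRT1 (1088), FLG2 (153.8), KRT10 (835.5), COL1A1 (1686), COL1A2 (1617), MMP2 (96.73), GBGT1 (0.405), TOP2A (9.882), MOGAT2 (19.28) and the summed skin genes (2399). M1008 stood low for OTC (215), TTR (660.4) and HPX (1817), and high for TEF (227.7), ENTPD5 (10411) and CD163 (12.09). M1011 stood high for FGA (10326), NFIL3 (66.43) and MPZL2 (8.271), M1001 for CRY1 (22.67) and NPAS2 (12.39), F1019 for FIBCD1 (251.5) and RSAD2 (30.08), and F1016 for LOC100506385 (30.92) and low for ITIH4 (1828).

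The effect at week 15 differed from that at week 0 by the interaction test for 439 genes. Log2 differences were negative for PPP1R3C (-1.58), MFAP3L (-1.46), ENTPD5 (-2.44), MFSD2A (-2.0), MPZL2 (-1.75) and SLC13A2 (-1.57). They were positive for LBP (1.30), IFIT1 (0.67), RSAD2 (1.35), IFIT2 (1.16), ZBP1 (2.70), PDCD1 (2.91), TOP2A (3.36), ARHGAP11A (2.69), TCF19 (2.67), IGF2BP2 (1.01) and PLAT (1.22).

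The biopsy of M1004, left out above, had 7519 RPM of MX1, 968.9 of ISG15 and 4555 of RSAD2, relative to gene reads, where no placebo biopsy had more than 774.8, 26.48 and 31.03.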

How the results depend on the processing

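With the animal as a block (change from week -3) 1755 genes were called at week 15, 382 of them lower, and of the 124 called genes named in the text 75 lost the call, or 36 without F1016 and F1018. A fold change above 2 left 1709 genes, 1224 higher and 485 lower. For the difference between weeks 15 and 0, DESeq2 called 675 genes, 203 of them more negative, and the animal block 832, 525 more positive and 307 more negative. With 1 animal left out, 3120 to 3473 genes were called at week 15, 1874 to 2109 higher and 1246 to 1409 lower, and 307 to 645 genes differed between weeks 15 and 0, 246 to 523 more positive and 46 to 131 more negative. The log2 fold change of KRT1 turned to 0.48 with DESeq2, 0.41 without M1008 and F1021, 0.91 without the biopsies with muscle reads and 0.44 with lane as a covariate, and that of FLG2 to 0.28, 0.24, 0.17 and 0.31. KRT10 turned to 0.14 with lane, and without the biopsies with muscle reads COL1A1 turned to 0.54 and COL1A2 to 0.42. With 1 animal left out KRT1 ranged from -7.80 to 0.51 and FLG2 from -4.26 to 0.28, the upper values without F1021. These turns follow the left out biopsies where F1021 was left out, and elsewhere the cause was not tested. The WHV difference ranged from -2.06 to -3.57 over its alternatives (exact permutation p 0.00105 to 0.00979). Of the 124 called genes, 24 lost the call when some animal was left out and 46 kept it in every alternative run. Group sizes of 8 and 9 animals, shared reads of paralogs and whole biopsies limit these results, and depth does so for genes near 1 CPM.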

Other observations

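Between the runs of M1008, 221 of 11321 genes with at least 5 CPM differed by more than 2-fold and 2 by more than 8-fold. SMEK2 took 211.1 RPM of gene reads in the run from lane 3 and 6116 in that from lane 5, beside the difference in ENTPD5, while CYP7A1 (68.33 and 72.44), ADH1A (4953 and 4500) and MX1 (631.3 and 569.2) were alike in both.

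Of the genes called lower at week 15, 1302 of 1307 tested at week 11 and 1170 of 1245 tested at week 0 had a negative log2 fold change there too. The animals of these comparisons are largely the same.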
